A study of Bos taurus with 8 samples.

Results

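Solute carriers are membrane proteins that move sugars, amino acids, ions, metals, nucleosides, lipids and vitamins across the plasma membrane and the membranes of organelles. The SLC25 subfamily sits mainly in the inner mitochondrial membrane and passes metabolites such as ADP, ATP, phosphate, citrate and aspartate in and out of the mitochondrion. In the blastocyst, carriers of the trophectoderm, the outer epithelium, and of the inner cell mass supply the embryo with amino acids, energy substrates and zinc before implantation. Insulin is best known for moving a glucose carrier to the surface of muscle and fat cells, a step that a measurement of RNA does not show.

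The members were the genes whose symbol on the array consists of SLC, a subfamily number, A and a gene number, leaving out SLC2A1, SLC2A3, SLC2A8, SLC3A2 and SLC7A5. Of 286 such genes with a probe, 211 were measured, 33 in SLC25 and 178 in other subfamilies, among 11718 measured named genes of 15229 with a probe. Each gene was read from 1 probe, the brightest, which counted as detected in a reading above the negative controls’ mean by more than 2 SD and had to reach this in at least 4 of 16 readings. The other 75 genes did not reach that limit, among them SLC6A14, a carrier of neutral and basic amino acids, and SLC9A3, a sodium/proton exchanger. Of the 211 members, 110 were detected in all 16 readings. The 12 members with exactly 4 readings above the limit had log2 ratios of −0.21 to 0.11, and the 12 genes left out with 3 readings had ratios of −0.13 to 0.22. The symbol also takes in SLC4A1AP, SLC7A6OS, SLC9A3R1 and SLC9A3R2, which encode no carriers themselves, and the last 2 are now called NHERF1 and NHERF2. By its number SLC7A6OS counts in the amino acid list below, and SLC4A1AP, SLC9A3R1 and SLC9A3R2 count in the inorganic ion list. SLC24A6 is now called SLC8B1, and the other 208 symbols are current.

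The RNA came from bovine blastocysts produced in vitro from oocytes of slaughterhouse ovaries. Bovine insulin was in the medium during oocyte maturation at 0.1 µg/ml (INS0.1) or at 10 µg/ml (INS10), and the control oocytes matured without it. Each dose had 4 arrays, and every array carried insulin RNA and control RNA in opposite dyes, with insulin in Cy5 on replicates 1 and 2 and in Cy3 on replicates 3 and 4. The design text gives 4 biological replicates per condition, while control RNA was on all 8 arrays, so the doses may share control samples, and the sources used here do not give the number of embryos in a replicate. RNA was amplified in 2 rounds before labelling, which can alter ratios.

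The median spot on an array read 163 to 255 in Cy5 and 234 to 348 in Cy3, and 44.1% to 58.8% of probes were detected per reading. Precision was set by the number of arrays, and the SE of a log2 ratio had a median of 0.11 for both doses averaged and of 0.16 for 1 dose. INS0.1 replicate 1 stood apart. Over 274 probes called higher in a separate fit to the INS10 arrays, its median log2 ratio was 0.05, beside 0.80 to 0.97 on the other 3 INS0.1 arrays. Results that turn on it are therefore given without it as well. It was set apart by low ratios of probes that rose, so a higher call found only without it is no independent support. Without it, 605 of 29384 probes (2.06%) were called for both doses averaged, beside 484 (1.65%) with all arrays.

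Markers of blastocyst lineages were present on these arrays, with 9 of 9 trophectoderm, 6 of 6 inner cell mass and 6 of 6 hypoblast genes detected. With insulin at either dose, GATA2 and TEAD4 of the trophectoderm list, SOX2 of the inner cell mass list and APOA1 of the hypoblast list were called higher, and the median log2 ratios of the lists were 0.13, 0.15 and −0.06. Summed trophectoderm intensity was 139747 to 163657 in INS0.1, 124915 to 175069 in INS10 and 105548 to 157677 in control readings, and that of the inner cell mass 15991 to 23532, 19483 to 30806 and 15756 to 24585. Of 10 cumulus and granulosa genes, 8 were detected, with CYP11A1 called higher, a median ratio of −0.01 and sums of 4512 to 15419 in INS0.1, 8157 to 12228 in INS10 and 5174 to 8918 in control readings, and TNFAIP6 and AMH were not detected. Oocyte genes (5 of 10 detected, none called, median −0.14), sperm genes (5 of 8, PRM1 called lower, median −0.20) and fibroblast and blood genes (5 of 5, none called, median −0.03) were read too. The part of these cell types in the results on solute carriers was not tested.

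The first comparison asked whether solute carrier RNA differed in blastocysts of insulin-treated oocytes, at either dose, from that in control blastocysts, averaging the effects of both doses. SLC6A20 rose 1.73-fold and SLC39A3 rose 1.34-fold with insulin, and no member was called lower. These 2 calls of 211 were 0.948% of the members, beside 1.65% of all 29384 probes tested, so the share of called members was no larger than the background. In direction, the 2 higher calls stood beside 1.48% of probes called higher and the 0 lower calls beside 0.167% called lower, by limma with Benjamini-Hochberg adjustment over all probes. At an unadjusted p under 0.05, 13 members were higher, beside 6.33% of probes, and 4 lower, beside 3.99%, together 8.06% of the members and 10.3% of all probes. The median log2 ratio of the members was −0.00, as it was over all probes, and 104 of 211 members (49.3%) were above 0, beside 49.5% of probes. Ratios beyond 0.5 in size were found for 2 members, SLC6A20 and SLC27A4, or 0.948%, beside 1.54% of probes. In bulk RNA, a change in the number of cells of a type and a change in RNA per cell cannot be told apart.

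**Figure D1:**
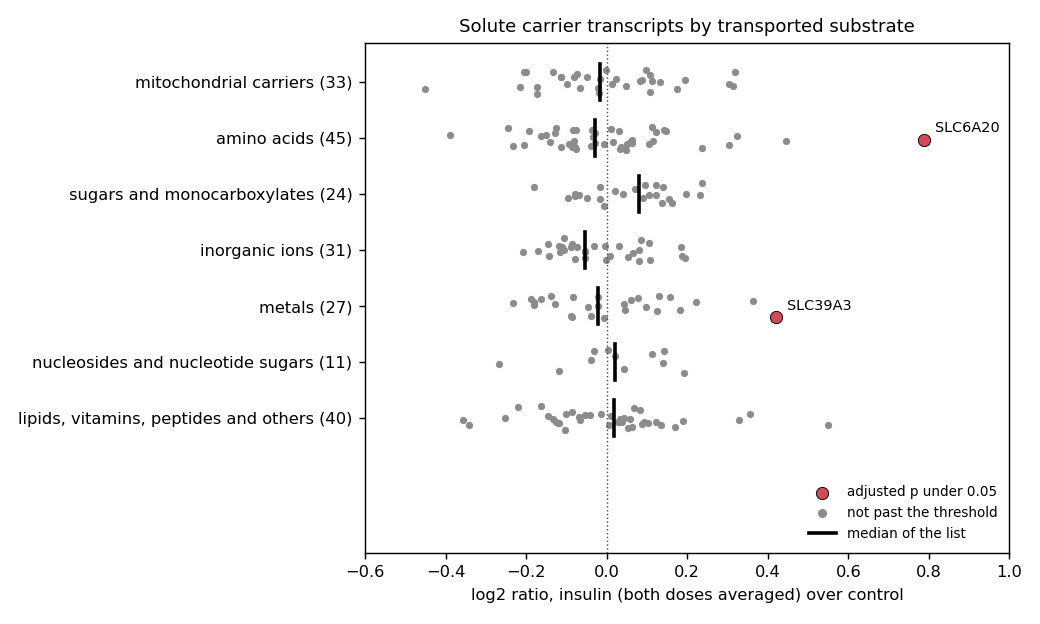
Log2 ratio of insulin over control, averaged over both doses, for each of 211 measured solute carrier genes (points), in rows by transported substrate, with the number of genes in brackets and black bars for the median of each row. Row medians lay between −0.05 and 0.08, and SLC6A20 (0.79) and SLC39A3 (0.42), in red, passed an adjusted p of 0.05.

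SLC6A20 encodes a sodium-dependent carrier of proline and other imino acids. On the INS0.1 arrays, its normalised intensity with insulin was 462.6, 884.6, 1311.2 and 1076.5 in replicates 1 to 4, against 364.3, 678.3, 749.3 and 467.5 for control RNA. On the INS10 arrays, it was 1034, 965, 1507.1 and 613.4 with insulin, against 519.8, 617.6, 740.5 and 325.9 for control RNA. The intensities of insulin and control RNA overlapped between arrays, but on each of the 8 arrays the insulin reading was the higher one.

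The log2 ratios of SLC6A20 were 0.34, 0.38, 0.81 and 1.20 on the INS0.1 arrays and 0.99, 0.64, 1.03 and 0.91 on the INS10 arrays. The lowest was that of INS0.1 replicate 1, the array that stood apart, and without it the mean ratio was 0.82 (adjusted p = 0.000308). Over all arrays the log2 ratio was 0.79 (SE 0.11, 95% confidence interval 0.56 to 1.01, limma adjusted p = 0.000377). Leaving out any 1 array gave ratios of 0.72 to 0.82, each past the threshold. The gene had 1 kept probe, so no other probe bears on it.

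SLC39A3 encodes ZIP3, a carrier that brings zinc into the cytosol. Its intensity with insulin was 549.1, 844, 548.2 and 791.3 on the INS0.1 arrays, against 398.3, 494, 546.5 and 531.6 for control RNA. On the INS10 arrays it was 664.8, 755.9, 573.2 and 563.2 with insulin, against 479.8, 562.9, 465 and 442.9 for control RNA. In INS0.1 replicate 3 the readings were nearly the same, and on the other arrays insulin was higher.

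As log2 ratios, these were 0.46, 0.77, 0.00 and 0.57 at INS0.1 and 0.47, 0.43, 0.30 and 0.35 at INS10, all at or above 0. The mean of 0.42 (SE 0.11, confidence interval 0.20 to 0.64) lay at the edge of the threshold, with a limma adjusted p of 0.0494. The call of SLC39A3 was lost when any 1 array other than INS0.1 replicate 3 was left out. The adjusted p was then 0.0609 without INS0.1 replicate 1, 0.170 without replicate 2 and 0.163 without replicate 4. Without INS10 replicates 1, 2, 3 or 4 it was 0.126, 0.124, 0.129 and 0.123. The ratio itself stayed between 0.37 and 0.49. Where replicates were treated as blocks, SLC39A3 lost its call with the dye fitted by slide (limma adjusted p = 0.0831). It kept the call with the shared dye effect (limma adjusted p = 0.0404), a setting chosen after seeing the data.

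**Figure D2:**
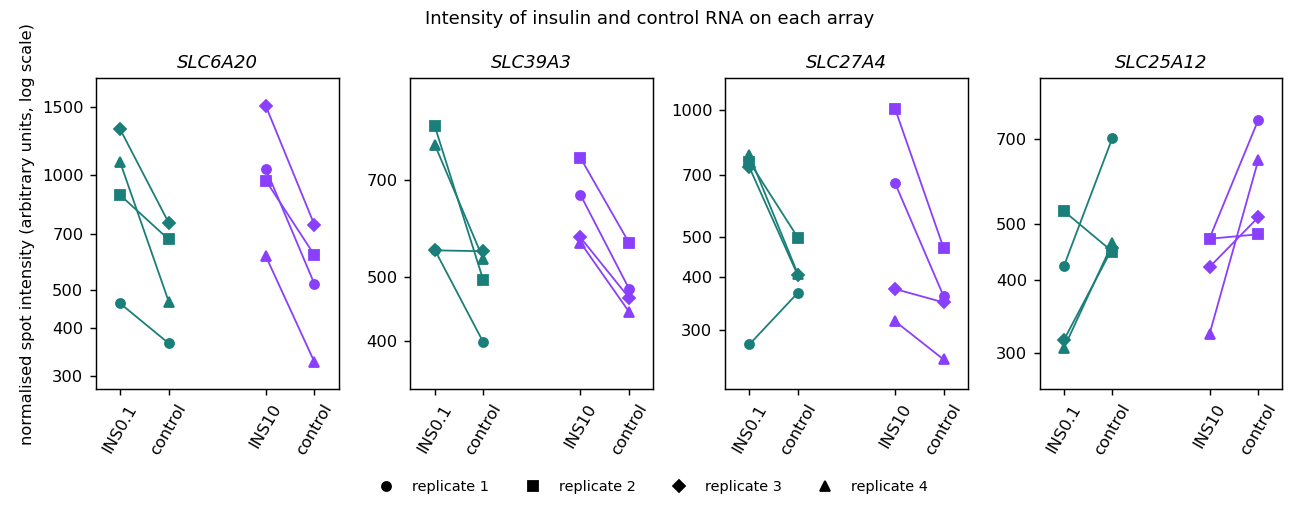
Normalised spot intensity (arbitrary units, log scale) of insulin RNA and of control RNA on the same array, joined by a line, for SLC6A20, SLC39A3, SLC27A4 and SLC25A12, with INS0.1 arrays in green, INS10 arrays in purple and symbols for replicates. SLC6A20 was higher with insulin on 8 of 8 arrays and SLC27A4 on 7, with INS0.1 replicate 1 at a log2 ratio of −0.41, while SLC25A12 was lower with insulin on 7 of 8.

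One further member had ratios of one sign on all 8 arrays. SLC38A11, a member of the subfamily of sodium-coupled neutral amino acid carriers, was at −0.35, −0.36, −0.93 and −0.10 at INS0.1 and at −0.15, −0.02, −0.46 and −0.75 at INS10. Its mean of −0.39 (SE 0.11) did not pass the test (limma adjusted p = 0.101), and a dimmer probe of the gene was at 0.05. It passed without INS0.1 replicate 4 (adjusted p = 0.0334) but not when any other array was left out. Ratios of the same sign on 8 arrays were thus found for 3 of 211 members (1.42%), beside 1.95% of all probes.

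In the amino acid list, 1 of 45 members was called (2.22%), beside 1.65% of all probes, and their median log2 ratio was −0.03 with 21 above 0. At an unadjusted p under 0.05, 5 were higher and 1 lower, together 13.3% of the list, near the 10.3% of all probes. Besides SLC6A20, the largest positive ratios were those of SLC43A2 and SLC43A1, which carry branched-chain and other large neutral amino acids without sodium. SLC43A2 was at −0.02, 0.94, 0.81 and 0.36 at INS0.1 and at 0.61, 1.04, 0.27 and −0.44 at INS10, with a mean of 0.44 (SE 0.14, adjusted p = 0.137). Its 2 arrays at or below 0 were INS0.1 replicate 1 and INS10 replicate 4, and leaving out the first (adjusted p = 0.0130) or the second (adjusted p = 0.0390) took it past the threshold. Both were its lowest arrays, so these passes are no independent support, and removal of any other array gave no call. SLC43A1 averaged 0.32 (SE 0.10, adjusted p = 0.162).

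The carriers that supply glutamine and other neutral amino acids to many dividing cells lay near 0. SLC1A5 had a log2 ratio of −0.01 (confidence interval −0.29 to 0.27), SLC38A2 of −0.03 (−0.32 to 0.25) and the glycine carrier SLC6A9 of 0.03 (−0.19 to 0.26). Their arrays disagreed in sign, as for SLC1A5, which was at 0.71, −0.84, −0.08 and −0.20 at INS0.1 and at 0.39, −0.16, 0.04 and 0.08 at INS10. SLC6A9 was dim, with intensities of 133.1 to 289, beside 1528.3 to 3314.2 for SLC1A5, so its ratio near 0 says less. SLC6A8, the creatine carrier, was at −0.08, and SLC6A6, the taurine carrier, at −0.19. The negative end of the list also held SLC36A2 (−0.24), a proton-coupled carrier of proline and glycine, SLC1A3 (−0.23, with dimmer probes at −0.13 and 0.13), a glutamate carrier, and SLC7A6 (−0.21), which exchanges basic for neutral amino acids. None of these passed the test. SLC36A2, which shares proline as a substrate with SLC6A20, was at 0.02, −0.65, −0.01 and −0.80 at INS0.1 and at −0.10, −0.08, 0.04 and −0.39 at INS10, and was thus higher on only 2 of 8 arrays. The 3 measured members of SLC36 all had negative ratios.

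The metal carriers held 27 members, with 1 called (3.70%, beside 1.65% of all probes), a median of −0.02 and 12 above 0. Of the 13 zinc importers of SLC39, 8 were above 0, with a median of 0.05 and a range of −0.16 to 0.42. SLC39A11 came next to SLC39A3 at 0.09, 0.66, 0.49 and 0.70 on the INS0.1 arrays and 0.25, −0.02, 0.38 and 0.35 on the INS10 arrays. It was higher on 7 of 8 arrays but did not pass the test (mean 0.36, SE 0.11, limma adjusted p = 0.109). SLC39A14, which carries iron and manganese as well as zinc, was lowest at −0.16 (adjusted p = 0.718), while its 2 dimmer probes were at −0.10 and 0.14. The 8 SLC30 members, which move zinc out of the cytosol, ran from −0.23 to 0.18 with a median of 0.03. The lowest of them was SLC30A1, the exporter of the plasma membrane, at −0.23 (SE 0.14, adjusted p = 0.608), and a dimmer probe of that gene was at 0.04. The iron importer SLC11A2 was at −0.18 (SE 0.11) and the iron exporter SLC40A1 at −0.05 (SE 0.12), neither past the test. The 2 dimmer probes of SLC11A2 were at −0.05 and 0.22, so its probes disagreed in sign.

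**Figure D3:**
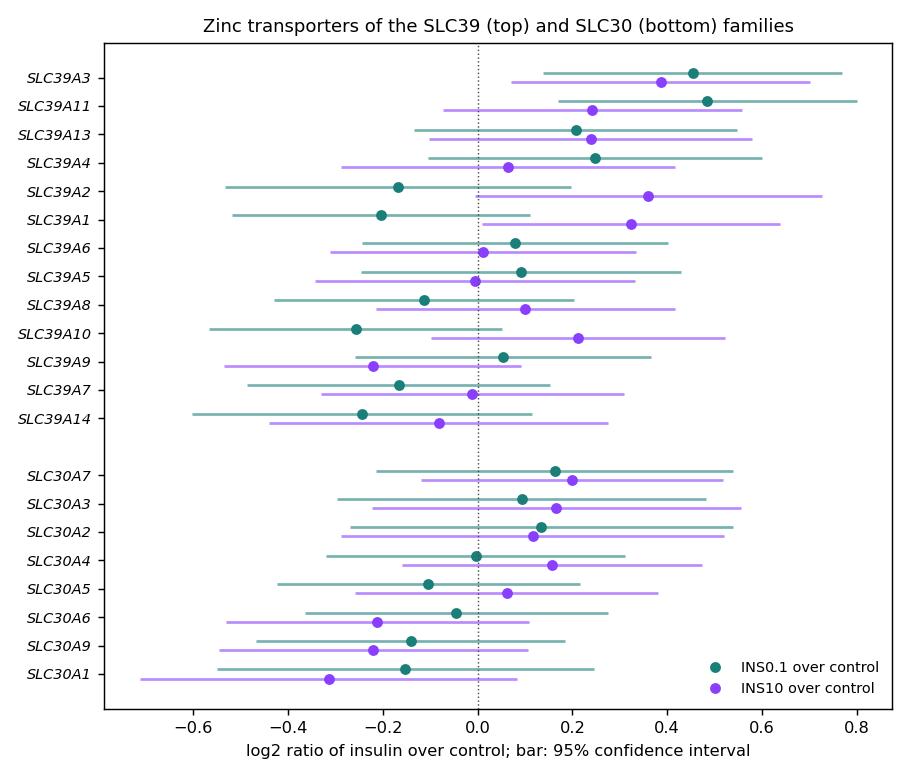
Log2 ratio of insulin over control for the measured zinc importers of SLC39 and exporters of SLC30, with a point for each dose (INS0.1 in green, INS10 in purple) and lines for 95% confidence intervals. SLC39A3 was at 0.45 at INS0.1 and 0.39 at INS10, and SLC39A1 (−0.20 and 0.32), SLC39A10 (−0.26 and 0.21) and SLC39A2 (−0.17 and 0.36) lay on opposite sides of 0 at the 2 doses.

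In the list of lipid, vitamin, peptide and other carriers, 0 of 40 members passed the limma test. At an unadjusted p under 0.05, 3 were higher and 2 lower, together 12.5% of the list, near the 10.3% of all probes. The largest ratio was that of SLC27A4, a fatty acid transport protein that also joins long-chain fatty acids to coenzyme A. Its intensity with insulin was 276.8, 753.9, 731.2 and 780.9 on the INS0.1 arrays, against 367.5, 497, 404 and 406.9 for control RNA. On the INS10 arrays it was 670.7, 1008.6, 375.1 and 314.4 with insulin, against 360.6, 469.8, 348.6 and 254.9 for control RNA.

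INS0.1 replicate 1 was the only array on which SLC27A4 was lower with insulin. The log2 ratios were −0.41, 0.60, 0.86 and 0.94 at INS0.1 and 0.90, 1.10, 0.11 and 0.30 at INS10, with a mean of 0.55 (SE 0.15, confidence interval 0.25 to 0.85, limma adjusted p = 0.0608). Without INS0.1 replicate 1, which was set apart by its low ratios of rising probes, the mean was 0.73 (limma adjusted p = 0.00175). With all arrays and replicates treated as blocks, SLC27A4 passed with the dye fitted by slide (limma adjusted p = 0.0306). It also passed with the shared dye effect (limma adjusted p = 0.0488), a setting chosen after seeing the data. Removal of the other arrays gave adjusted p-values of 0.0502 to 0.283.

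SLC27A1, a related fatty acid transport protein, was at −0.63, 0.12, 0.99 and 0.35 at INS0.1 and at 0.25, 0.91, 0.08 and 0.77 at INS10. It too was negative only on INS0.1 replicate 1, and its mean was 0.36 (SE 0.14, adjusted p = 0.314). The 5 measured members of SLC27 had positive ratios for both doses averaged, from 0.04 to 0.55, and 4 of the 5 were positive at each single dose. The lowest, SLC27A6, was detected in 4 of 16 readings. SLC29 and SLC44, with 4 measured members each, were also all above 0 for both doses averaged. Among the vitamin carriers, SLC19A2, which imports thiamine, was at −0.36 (SE 0.14, adjusted p = 0.325), and SLC5A6, which carries biotin and pantothenate and stands by its number in the sugar list, was at −0.07. SLC19A2 passed the threshold without INS0.1 replicate 3, its only positive array at that dose (−0.53, adjusted p = 0.0494). Removing an array of opposite sign gives no independent support, and removal of any other array gave no call. SLC13A2, a sodium-coupled carrier of dicarboxylates such as succinate, was lower with insulin on 7 of 8 arrays with a mean of −0.34 (SE 0.12, adjusted p = 0.224). SLC33A1, which brings acetyl-CoA into the endoplasmic reticulum, was at −0.22 and SLC22A23 at 0.33, neither past the test.

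**Figure D4:**
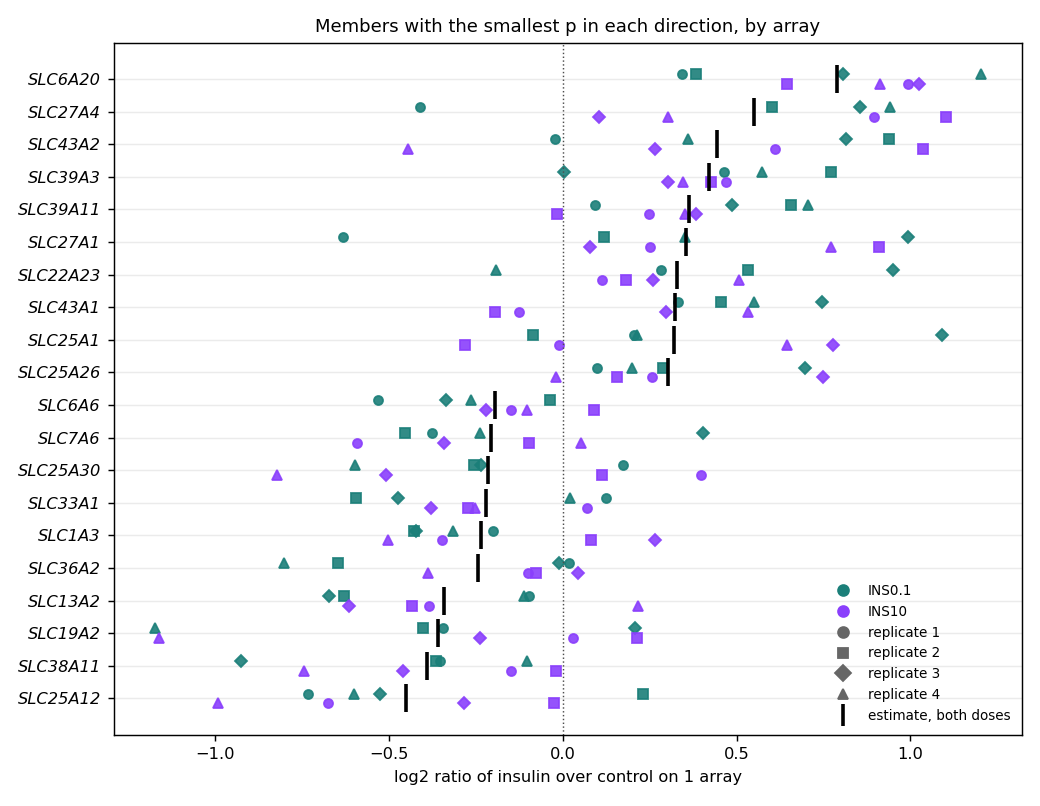
Log2 ratio of insulin over control on each array (INS0.1 in green, INS10 in purple, with symbols for replicates) for the solute carriers with the smallest unadjusted p in each direction, both doses averaged, with black bars for the mean. SLC6A20 and SLC39A3 were at or above 0 on all 8 arrays and SLC38A11 below 0 on all 8, while the other genes had at least 1 array of the opposite sign.

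None of the 33 SLC25 mitochondrial carriers passed the limma test with insulin at either dose. Their median log2 ratio was −0.02 and 15 were above 0. At an unadjusted p under 0.05, 3 were higher and 1 lower, together 12.1% of them, near the 10.3% of all probes. On single arrays the SLC25 median was 0.06, 0.03, −0.24 and −0.12 at INS0.1 and 0.03, −0.02, 0.06 and −0.02 at INS10, with no common sign. The lowest member was SLC25A12, the aspartate/glutamate carrier also called aralar, which works in the malate-aspartate shuttle that brings reducing equivalents into mitochondria.

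With insulin, SLC25A12 had intensities of 423.2, 525.8, 315.6 and 305.6 on the INS0.1 arrays, against 703.5, 447.8, 454.5 and 463.3 for control RNA. On the INS10 arrays it had 472.4, 471.3, 421.5 and 323.4 with insulin, against 753.9, 479.7, 513 and 642.8 for control RNA. INS0.1 replicate 2 was the one array with more in insulin RNA, and INS10 replicate 2 showed hardly any difference. The log2 ratios were −0.73, 0.23, −0.53 and −0.60 at INS0.1 and −0.67, −0.03, −0.28 and −0.99 at INS10. Their mean was −0.45 (SE 0.13, confidence interval −0.71 to −0.19, limma adjusted p = 0.0805), and without INS0.1 replicate 2 it was −0.55 (adjusted p = 0.0366). That array was the only positive one, so this pass is no independent support. Removal of any other array gave no call.

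Of the carriers that exchange ADP for ATP, SLC25A6 was at 0.31, SLC25A4 at 0.18 and SLC25A5 at −0.20, none past the test. SLC25A6 was at 0.03, −0.51, 1.27 and 0.50 at INS0.1 and at −0.15, 0.40, 0.11 and 0.87 at INS10, so its spread over arrays was larger than its mean (SE 0.13, adjusted p = 0.370). A second probe of SLC25A5 gave −0.25, close to the first. SLC25A1, which exports the citrate used for fatty acid synthesis, was at 0.32 (SE 0.11, adjusted p = 0.247). It was at 1.09, 0.21, 0.78 and 0.64 on the arrays with insulin in Cy3 and at 0.21, −0.09, −0.01 and −0.28 on those with insulin in Cy5, with a dye effect of −0.36 (adjusted p = 0.0703). Its other probe was at 0.09. SLC25A26, which brings S-adenosylmethionine into mitochondria, was at 0.30 on 7 of 8 positive arrays, but its 6 other probes ran from −0.30 to 0.29. The phosphate carrier SLC25A3 (0.05), the carnitine/acylcarnitine carrier SLC25A20 (−0.02) and SLC25A30 (−0.22) did not pass either.

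**Figure D5:**
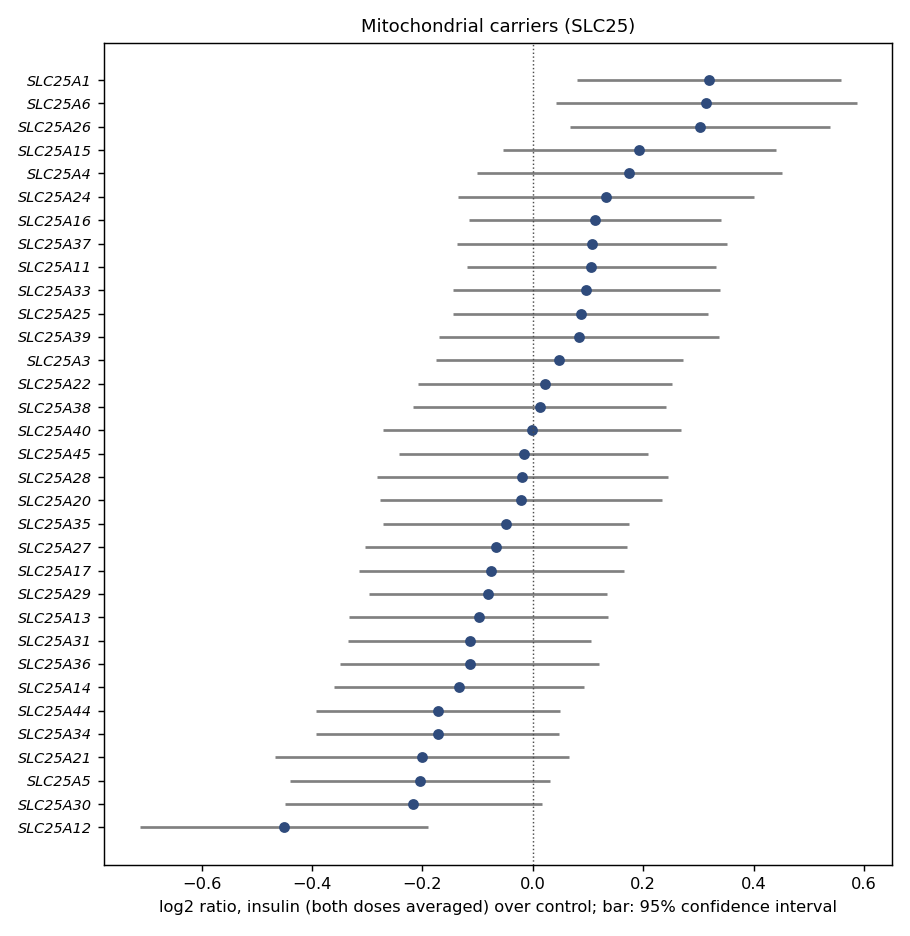
Log2 ratio of insulin over control, both doses averaged, for each of the 33 measured SLC25 mitochondrial carriers, with lines for 95% confidence intervals. Ratios ran from −0.45 for SLC25A12 to 0.32 for SLC25A1, and no gene passed an adjusted p of 0.05.

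The sugar and monocarboxylate carriers (24 members) had a median ratio of 0.08 with 15 above 0, the largest median of the lists. By limma 0 were called, and 0 had an unadjusted p under 0.05, beside 10.3% of all probes. Of 8 members of SLC16, which carries lactate, pyruvate and related acids, 7 had positive ratios, with a median of 0.14 and a maximum of 0.20. SLC16A1, the lactate carrier MCT1, was at 1.28 on INS0.1 replicate 1 and at −0.32, −0.41 and −0.19 on the other INS0.1 arrays. At INS10 it was at 0.07, −0.10, 0.23 and 0.57. The mean of 0.14 (SE 0.15, adjusted p = 0.819) was smaller than that spread. Its 2 dimmer probes were at 0.25 and 0.06, and on INS0.1 replicate 1 they read −0.17 and 0.90. SLC16A3, the lactate carrier MCT4, was at 0.16 (SE 0.12). SLC2A6, a glucose carrier of internal membranes, followed the dye. It was at −0.49, −0.73, −0.96 and −0.51 on the arrays with insulin in Cy5 and at 1.14, 0.79, 1.04 and 1.61 on those with insulin in Cy3, so that its insulin ratio of 0.24 (adjusted p = 0.489) stood beside a dye effect of −0.91 (adjusted p = 0.000158). A dye effect passed the test for 12 of 211 members (5.69%), beside 5.23% of all probes. SLC2A13, a proton-coupled carrier of myo-inositol, was above the detection limit in 6 of 16 readings, none of them on an INS0.1 array, and had a ratio of −0.38 at INS10 (adjusted p = 0.699).

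Among the 31 members of the inorganic ion list, which takes in SLC4A1AP, SLC9A3R1 and SLC9A3R2, 0 passed the limma test. An unadjusted p under 0.05 was found for 0 of them, beside 10.3% of all probes. Their median was −0.05, and 12 were above 0. The highest ratio was 0.19 for SLC4A3, a chloride/bicarbonate exchanger. SLC34A2, a sodium-phosphate carrier at the low end of the list, was seen in 4 of 16 readings and in none with insulin at INS0.1, and no fold is given. The 11 nucleoside and nucleotide sugar carriers had a median of 0.02 and 0 calls by limma, with 0 at an unadjusted p under 0.05. They ran from −0.27 for SLC28A3, which concentrates nucleosides with sodium, to 0.19 for SLC29A3, an equilibrative nucleoside carrier of lysosomes. SLC28A3 was at 0.27, −1.31, −0.02 and 0.24 at INS0.1 and at 0.25, −0.86, −0.68 and −0.03 at INS10, with replicate 2 the lowest array at each dose. The 4 measured SLC29 members were all above 0, at 0.04 to 0.19.

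The second comparison took insulin at 0.1 µg/ml against the control over 4 arrays. By limma 0 of 211 members were called, beside 0.109% of all probes (0.105% higher and 0.0034% lower). At an unadjusted p under 0.05, 10 were higher, beside 4.49% of probes, and 6 lower, beside 3.2%, together 7.58% of the members and 7.68% of probes. The smallest p was that of SLC6A20 (0.68, SE 0.15, adjusted p = 0.0888). It was followed by the amino acid carrier SLC43A1, at 0.33, 0.46, 0.75 and 0.55 (mean 0.52, SE 0.15, adjusted p = 0.197), the one named member besides SLC6A20 with 4 ratios above 0.3. SLC39A11 averaged 0.48 and SLC39A3 0.45, with adjusted p-values of 0.271 and 0.341. On the negative side were SLC38A11 (−0.44), SLC25A12 (−0.41), SLC13A2 (−0.38) and SLC36A2 (−0.36), with adjusted p-values of 0.431 to 0.635. Without INS0.1 replicate 1, the fatty acid transport protein SLC27A4 was called at this dose (0.86, limma adjusted p = 0.0409). This was 1 of 211 members, beside 0.742% of all probes called in that fit. SLC27A4 was the only member to be called at INS0.1 when any 1 array was left out.

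The third comparison took insulin at 10 µg/ml against the control over 4 arrays. SLC6A20 rose 1.86-fold (log2 0.89, SE 0.15, confidence interval 0.57 to 1.21, limma adjusted p = 0.0124) and was the only member called, 1 of 211 or 0.474%, beside 0.436% of all probes (0.419% higher and 0.017% lower). Its call at this dose was lost without INS10 replicate 1 (0.77, adjusted p = 0.212), replicate 2 (0.91, 0.1503) or replicate 3 (0.92, 0.109). At an unadjusted p under 0.05, 6 members were higher, beside 4.28% of probes, and 4 lower, beside 2.48%, together 4.74% of the members and 6.77% of probes. SLC27A4 was at 0.60 (SE 0.21), SLC27A1 at 0.50 (SE 0.20) and SLC39A3 at 0.39 (SE 0.15), with adjusted p-values of 0.379, 0.538 and 0.544. With the INS10 arrays fitted alone, SLC27A4 passed (limma adjusted p = 0.0454), in a fit that called 1.01% of all probes. The lowest ratios by p were those of SLC25A12 (−0.49), SLC43A3 (−0.43), SLC2A13 (−0.38) and SLC38A11 (−0.34), none past the test.

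The fourth comparison set INS10 against INS0.1 through the control RNA on each array. Each dose lay on a slide of its own, so dose and slide cannot be told apart. By limma 0 of 211 members were called, beside 0% of all probes, and at an unadjusted p under 0.05, 3 were higher, beside 1.33% of probes, and 1 lower, beside 1.54%, or 2.88% of probes in both directions. For SLC6A20 the difference was 0.21 (confidence interval −0.24 to 0.66, unadjusted p = 0.346). That interval holds both no difference and one larger than the SE of either dose.

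The 3 members higher at INS10 by unadjusted p were all zinc importers. SLC39A1, the ZIP1 carrier of the plasma membrane, was at 0.45, 0.40, 0.11 and 0.33 on the INS10 arrays, against −0.44, 0.16, −0.21 and −0.32 on the INS0.1 arrays. The difference was 0.53 (SE 0.21, unadjusted p = 0.0225), with 1 overlap, since INS0.1 replicate 2 lay above INS10 replicate 3. SLC39A10 was at 0.42, 0.13, 0.16 and 0.15 on the INS10 arrays, against −0.16, −0.52, −0.26 and −0.09 on the INS0.1 arrays, with no overlap (0.47, SE 0.21, unadjusted p = 0.0368). Its 2 dimmer probes, seen in 4 and 9 of 16 readings, differed by −0.07 and 0.16. SLC39A2 differed by 0.53 (SE 0.25, unadjusted p = 0.0454). Over the 13 SLC39 members the median difference was 0.03, with 7 above 0. SLC43A3, a nucleobase carrier grouped here by its number with the amino acid carriers, differed most. It was at 0.06, 0.21, −1.36 and −0.61 on the INS10 arrays, against 0.38, 0.46, −0.18 and 0.75 on the INS0.1 arrays, a difference of −0.78 (SE 0.26, unadjusted p = 0.00756). The adjusted p of all 4 by limma was 0.9999. The Golgi carrier of UDP-N-acetylglucosamine SLC35A3 (0.58), SLC43A1 (−0.39) and the mitochondrial ATP-magnesium/phosphate carrier SLC25A24 (−0.44) had unadjusted p-values of 0.0666, 0.0718 and 0.103. SLC18A2, a vesicular monoamine carrier, was seen in 5 of 16 readings, with none of them in insulin RNA at INS10, and no fold is given.

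Other families of carriers lay near the solute carriers. Of 22 ABC transporters, 7 SLCO genes, 11 MFSD genes and 12 partner genes such as sodium pump subunits and mitochondrial porins, 0 in each list were called by limma with insulin at either dose. At an unadjusted p under 0.05, 4 ABC genes were higher (18.2%), 1 SLCO gene was higher and 1 lower (28.6%), and no MFSD or partner gene was counted. The share of all probes was 10.3%, and the lists are small. The medians of the 4 lists were 0.04, 0.05, 0.00 and 0.02, beside −0.00 for the 211 solute carriers.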

How the data were processed

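The deposited tables give, per the file headers, each spot’s median intensity in Cy5 and Cy3, the background intensity beside it and an ignore mark. Total RNA was taken with a PicoPure kit, went through 2 rounds of RiboAmp amplification and was labelled at guanines, per the labels' protocols. The authors also deposited a table of log2 ratios whose steps, scaling and centring are not stated, with column medians of −0.02 to 0.01. Its columns correlated at 0.985 to 0.997 with the ratios computed here (slopes 0.894 to 1.07), from which base 2 and the direction, insulin over control, were taken, and it served as an alternative.

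Intensities were background corrected with normexp (offset 50) and loess normalised within arrays, with 1418 control spots and 139 ignored probe spots at weight 0 and 8 spots without an identifier left out. Detection used 153 negative control spots and kept 29384 of 43794 probes. Limma 3.58.1 in R 4.3.3 fitted, for each probe over 8 arrays, an effect of each insulin dose and a shared dye effect. P-values were adjusted by Benjamini-Hochberg over all kept probes, with a threshold of 0.05, and confidence intervals are 95% and not adjusted. Because dyes were swapped between replicate numbers, dye and replicate differences of that kind cannot be told apart. Symbols came from the platform's annotation and were compared with RefSeq (ARS-UCD2.0). In 42 members with several kept probes the brightest stood for the gene.

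Members, substrate lists (by subfamily number), marker lists and tests were chosen with earlier results of these data known. Named genes were all members called, the 10 smallest p in each direction for both doses averaged and 4 in each other comparison, the highest and lowest of each list, and 20 carriers of known roles, wherever measured. Replicate numbers were checked for pairing, and deviations from the dose mean correlated at 0.312, 0.221, 0.257 and 0.249 for arrays of the same number (other pairs −0.217 to 0.0956). Same-numbered arrays also share their dye orientation. Within 1 dye orientation, the difference of replicates 1 and 2 correlated across doses at 0.261. That of replicates 3 and 4 correlated at 0.223. The main fit did not use the numbers, so its estimates and p-values ignore any pairing unless a block is named. A fit with the number as a block (consensus correlation 0.209) is given where it changed a call. In simulated data of this design for both doses averaged, 42 of 100 probes changed by 0.5 and 94 of 100 changed by 1 (log2) were recovered. There were 4 false calls among the unchanged probes of the 29384 simulated. The simulated arrays varied independently of each other. They lacked the correlation of same-numbered arrays and any shared control, so these counts may not hold for the measured data. Alternatives varied the background correction, normalisation, filter, probe choice, dye term, variance model and arrays.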

Additional observations from a re-analysis of the deposited data

Results flagged for a closer look

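Of 98 groups of 4 arrays among the named solute carriers, 3 held an array far from the other 3, and chance alone would give about 1 in 20. SLC16A1, the lactate carrier MCT1, had a log2 ratio of insulin over control of 1.28 on INS0.1 replicate 1, against −0.41 to −0.19 on the other INS0.1 arrays. The 2 dimmer probes of SLC16A1 read −0.17 and 0.90 on that array. SLC39A10, a zinc importer, had 0.42 on INS10 replicate 1, against 0.13 to 0.16 on the other INS10 arrays. SLC6A9, the glycine carrier, had −0.33 on INS10 replicate 2, against 0.10 to 0.16 on the other INS10 arrays. It was dim, with intensities of 133.1 to 289 over all arrays.

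For SLC39A10 the doses lay on opposite sides of 0, with 4 positive ratios at INS10 and 4 negative ones at INS0.1. The difference of 0.47 had an unadjusted p of 0.0368 and an adjusted p of 0.9999 by limma, and dose and slide cannot be told apart. The gene was named for its small p in this comparison, so the split is no separate support. The share of all probes split in this way is not given. Its 2 dimmer probes, described above, differed less between the doses and in opposite directions.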

How the results depend on the processing

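SLC6A20, the carrier of proline, kept its call for both doses averaged in every setting in which that average was fitted. For both doses averaged, the number of members called was 2. It was 1, SLC6A20 alone, with normexp offset 16, median centring, the authors' deposited ratios, no detection filter, averaging a gene’s probes, no dye term, or a trended and robust variance. In those settings 0.892% to 1.59% of all probes were called, beside 1.65% in the main fit. It was 3 of 110 members with probes detected in all 16 readings, where 3.74% of all probes were called. With 1 array left out it was 1 to 3, beside 0.936% to 2.06% of all probes. Leaving out INS0.1 replicate 1 together with the dye term, a setting chosen after seeing the data, is among those run. At INS10 the number was 1, and it was 0 with normexp offset 16 (SLC6A20 limma adjusted p = 0.0520) or with no dye term (0.0598), where 0% of all probes were called. It was 2 with each dose fitted alone, beside 1.01% of all probes. With 1 array left out it was 0 to 1, beside 0% to 0.677% of all probes. At INS0.1 it was 0, and 0 to 1 with 1 array left out, beside 0% to 0.742% of all probes. Between the doses it was 0 throughout. With a replicate block and the dye fitted by slide, 2 members were called for both doses averaged, SLC6A20 and SLC27A4, beside 1.25% of all probes. With the block and the shared dye effect, a setting also chosen after seeing the data, 3 were called, those 2 and SLC39A3, beside 1.83% of all probes. The median of the SLC25 members moved between −0.05 and 0.04 and that of the others between −0.02 and 0.03. The cause of these changes was not tested. Of 61 values under alternatives for the 3 called results, 40 kept their call, 21 lost it and 0 reversed. Of 3909 values for 193 results not called, 12 passed the threshold.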

Other observations

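SLC20A2, a sodium-phosphate carrier that also serves as a retrovirus receptor, was singled out after its values were seen, because its probes disagreed. The brightest probe was at log2 −0.11 for both doses averaged (limma adjusted p = 0.786) and carried a dye effect of 0.52 (adjusted p = 0.00596). A dimmer probe was at 0.48, 0.64, 0.66 and 0.58 on the INS0.1 arrays and at 0.37, 0.30, −0.08 and 0.83 on the INS10 arrays, higher on 7 of 8. It passed the test (0.47, SE 0.11, adjusted p = 0.0313), although it was above the detection limit in 8 of 16 readings and in 0 of 4 control readings at INS0.1. It was the only one called of 62 other kept probes of members, beside 1.65% of all probes, so such a share is near the background.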
